A study of Rattus norvegicus with 6 samples.

Results

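Receptor tyrosine kinases for growth factors were read in replicating and quiescent rat β-cells. The set holds 10 genes, *Insr*, *Igf1r*, *Egfr*, *Erbb2*, *Erbb3*, *Met*, *Fgfr1*, *Fgfr2*, *Ret* and *Axl*, chosen by name as receptors of β-cell mitogens, with every probe whose gene name on the array was one of these. All 10 were among the 36174 gene names on the array, with 20 of its 45598 probes. *Insr*, *Igf1r*, *Egfr*, *Met*, *Fgfr1*, *Fgfr2* and *Ret* had several probes each, and *Erbb2*, *Erbb3* and *Axl* had 1. A gene with several probes is represented by its brightest probe over the 6 arrays, called probe 1 here, and the other probes are given beside it.

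Islets of young adult male Wistar rats were cultured overnight with EdU, a thymidine analogue that enters DNA during S phase, then dispersed and fixed. The sort took β-cells by their granularity, their size and a zinc-binding dye, Newport Green, and divided them into EdU-positive (replicating) and EdU-negative (quiescent) cells. Each of 3 islet preparations pooled the islets of 4 rats and gave 1 replicating and 1 quiescent sample, so both groups shared animals, culture, EdU and fixation. The RNA was amplified, labelled with Cy3 and hybridized to 6 arrays of 1 colour. A cell counted as replicating if it had passed through S phase during the culture, wherever it stood in the cycle when it was fixed.

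Receptor tyrosine kinases cross the plasma membrane, bind a growth factor outside the cell and phosphorylate tyrosines on themselves and on adaptor proteins inside it. The adaptors pass the signal to the RAS-ERK cascade, which drives early response genes, and to PI3K and AKT, which act on growth and survival. In β-cells, insulin, IGF, EGF-family, HGF and FGF signalling have all been studied as inputs to β-cell mass or function.

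The probes are 60-base oligonucleotides, and several of one gene gave different readings. The bases 31 to 60 of the probes of *Fgfr1*, *Egfr*, *Met* and *Igf1r* are printed because the results of these genes turn on which probe is read. They run 5′ to 3′ as in the deposited files, with runs of at least 4 A in capitals.
Fgfr1 probe 1: tatattAAAAAcaaacaaacaaacAAAAAA
Fgfr1 probe 2: catgagccatttcctgaggagccctgtctg
Fgfr1 probe 3: ataaggcacagactctactggccacaggct
Egfr probe 1: ctaccccaactgAAAAcattttttAAAAAA
Egfr probe 2: aaatagtgttcgtgtatgaaattctcAAAA
Egfr probe 3: aggtatccatcgagaacattgtccttttgg
Met probe 1: aattgttctggtaaatcatacagtgAAAAt
Met probe 2: cactgtcaaggttgctgatttcggtcttgc
Igf1r probe 1: ctagtagttaaagtaccacatgaattaagt
Igf1r probe 2: gtttccaggaggtctccttctactacagcg

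In the files' coordinates on the rat build rn4, the *Fgfr1* probes lie on the minus strand at chr16:70869216-70869275, chr16:70870022-70870081 and chr16:70880267-70880326, in the order printed. The *Egfr* probes lie on the plus strand at chr14:97793466-97793525, chr14:97760372-97760431 and chr14:97788051-97788110. The *Met* probes are at chr4:43213390-43213449 and chr4:43202449-43203665 on the plus strand, the latter over a stretch longer than the probe. The *Igf1r* probes are at chr1:122996687-122996746 and chr1:122989150-122989209, also on the plus strand. No annotation of that build was used here, so exons and untranslated regions were not assigned. A run of at least 4 A stood in bases 31 to 60 of 4 of the 20 receptor probes, the *Fgfr1*, *Egfr* and *Met* probes that show capitals above, against 20.2% of all probes. The GC content of the receptor probes ran from 35% to 55%, where the median over all probes was 43.3%.

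Quiescent array 2, the quiescent sample of preparation 2, stood apart before any result was drawn. Its mean Pearson r with the other arrays was 0.708, against 0.866 to 0.895 for each of the others. It had 1583 outlier spots where the others had 252 to 299. The quiescent SD was larger than the replicating SD in 9 of the 9 receptors with a value on every array, and in 86.4% of genes with a symbol. Quiescent array 2 was the lowest array for 5 of these receptors and the highest for 3, and it was the lowest or highest for 71% of genes. Each receptor is therefore also given without this array, in a fit with no pairing, beside its ratio from all arrays. Insulin (*Ins2*) read between 15.51 and 16.87 on a log2 scale on every array, and all 9 β-cell markers measured were well above background on every array. *Mafa* was called lower in replicating cells by its brightest probe (log2 ratio -1.01), while its other probes, at -0.94 and -0.48, were not called. Of these 9 markers, 3 had a ratio above 0, and the median log2 ratio was -0.56. In 4 of the 9 all quiescent values lay above all replicating values, as in 6.24% of genes. The summed linear level of the 9 overlapped, at 250322 to 318890 in replicating and 154561 to 350544 in quiescent samples. The proliferation markers were higher in replicating cells for 10 of 10 genes. The brightest *Mki67* probe read 10.25, 12.23 and 8.20 in quiescent cells against 12.51, 12.86 and 12.28 in replicating cells. On quiescent array 2 the other *Mki67* probes read 8.81, 8.48 and 6.18. Their ratios were 3.29, 2.35 and 2.52, all called higher. Markers of other cells moved with the groups too. The summed linear level of 12 fibroblast and stellate markers was 14398 to 41407 in replicating and 5622 to 6820 in quiescent samples, and 4 of these genes passed the call described next. *Col1a1* read 13.06, 11.23 and 12.55 against 10.62, 11.51 and 10.08. The summed level of 8 α-cell markers was 29118 to 96197 against 6904 to 25138, with *Gcg* 2.39 higher on the log2 scale. A second *Col1a1* probe was called higher, by 3.68. Of 9 leukocyte markers, 3 were called higher (*Cd68* 1.32, *Cd14* 1.18 and *Cd74* 1.48), and 8 had a ratio above 0. Their summed level was 7957 to 8789 in replicating samples and 6254, 9233 and 4035 in quiescent samples, so that the groups overlapped through quiescent array 2. Endothelial, duct, acinar and Schwann sums overlapped between the groups, with 0, 1, 1 and 1 genes called higher, as did the sum of δ-cell and PP-cell markers, of which 3 of 5 passed (*Sst* 1.74 and *Ppy* 1.21 higher). None of the listed markers read below background on every array. The part of these cells in any result given here was not tested.

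Of the 10 receptors, *Fgfr1* was higher in replicating β-cells, with a log2 ratio of 1.34 ± 0.30 (SE, 3 preparations), a fold of 2.53, and the other 9 did not pass. A gene was called when limma gave an unadjusted p of at most 0.05 and the log2 ratio of replicating over quiescent cells was at least 1 in size. Of all genes with a symbol, 8.39% were called, 5.63% higher and 2.76% lower, so that 1 of 10 receptors higher and 0 lower is near the background. Of the 20 receptor probes, 2 were called, both higher, against 8.61% of all probes (4.44% higher and 4.18% lower). After Benjamini-Hochberg adjustment in limma over all 45598 probes, 0 probes passed 0.05 (smallest adjusted p = 0.0977), while 4379 probes (9.6%) had an unadjusted p under 0.05. The receptor ratios ran from -0.68 to 1.34 with a median of 0.54, where the median of all genes was -0.001. Without quiescent array 2 and without pairing, the receptor median was 0.16. With all arrays, the ratio was above 0 in 6 receptors. It was above 0 in all 3 preparations for *Insr*, *Fgfr1* and *Axl*, as for 17.3% of genes, and below 0 in all 3 for *Egfr*, as for 18.3%. Replicating and quiescent values did not overlap, with replicating above, in *Fgfr1* and *Axl*, as for 10.8% of genes, and no receptor had all quiescent values above, as 6.24% of genes did. With 3 arrays a group, the number of arrays limits the precision. The samples are bulk RNA, in which fewer cells of a type and less RNA per cell cannot be told apart.

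**Figure D1:**
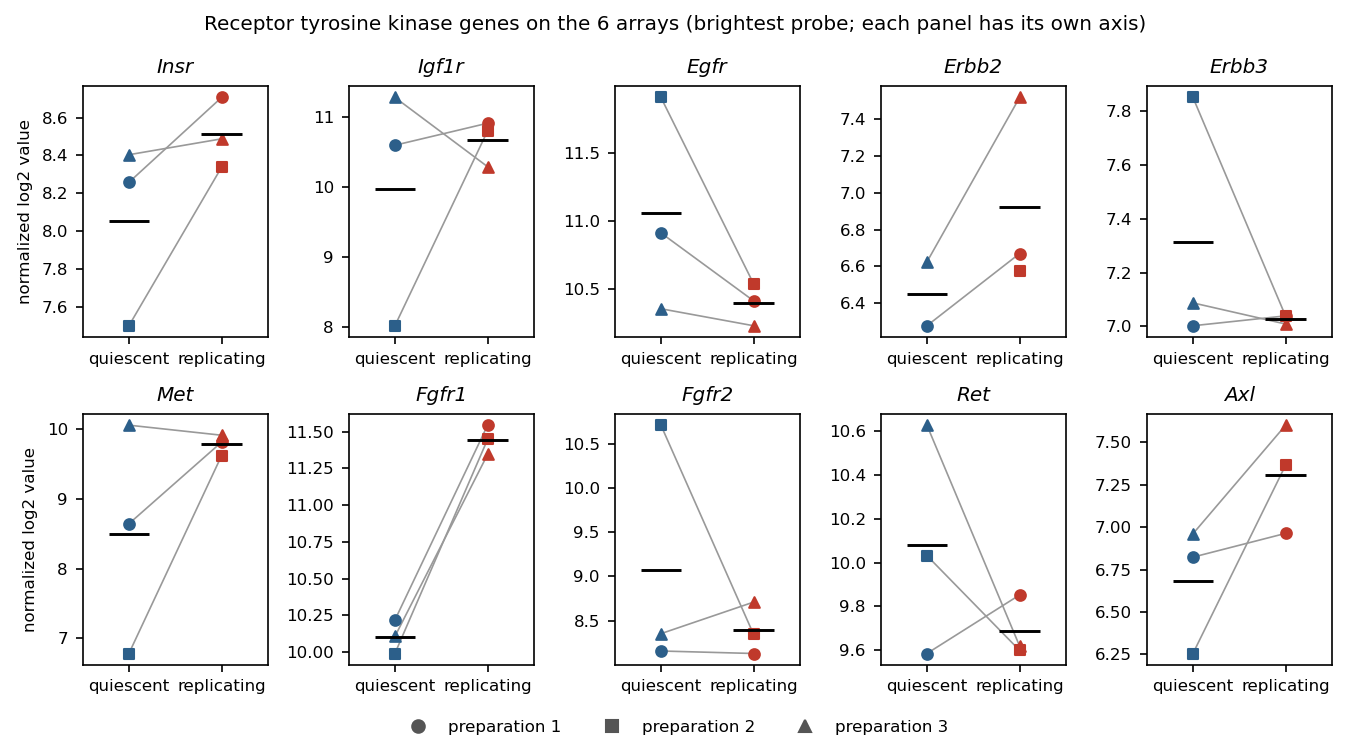
Normalized log2 value of probe 1 of each receptor on the arrays of quiescent (blue) and replicating (red) β-cells, with a symbol for each of the 3 islet preparations, a line joining the samples of a preparation and a black bar at the group mean; each panel has its own axis. The *Fgfr1* groups lie apart (9.99 to 10.22 and 11.35 to 11.54), and *Erbb2* has no value on quiescent array 2.

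The FGF receptors come first, since *Fgfr1* was the receptor called. FGFR1 and FGFR2 bind fibroblast growth factors together with heparan sulphate or a klotho protein. Probe 1 of *Fgfr1* read 11.54, 11.45 and 11.35 in replicating samples of preparations 1 to 3 and 10.22, 9.99 and 10.11 in quiescent samples. All replicating values lay above all quiescent values, by 1.13 at the nearest, and the quiescent array that stood apart in general did not stand apart here. The ratios by preparation were 1.33, 1.46 and 1.24, and the fitted ratio had a 95% interval of 0.57 to 2.12 (limma, adjusted p = 0.475). Without quiescent array 2 and without pairing, the ratio was 1.28 (adjusted p = 0.157).

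Probe 2 of *Fgfr1* read 8.56, 8.81 and 8.63 in replicating and 7.42, 6.97 and 7.68 in quiescent samples. These groups did not overlap either, and the ratio was 1.31 ± 0.35 (adjusted p = 0.475), a call lost without preparation 1 (1.39), with the processed signal (1.09) and with normexp values scaled to the 75th percentile (0.84). Probe 3 read 7.60, 7.58 and 7.41 against 7.44, 7.26 and 7.16. Its ratio was 0.24 ± 0.30, with an interval of -0.53 to 1.02 (adjusted p = 0.705), and its groups overlapped. The probes of *Fgfr1* therefore gave 2 calls and 1 ratio that did not pass. The difference between the probes was not tested, and no level is compared between them. Of the bases printed above, those of probe 1 hold A runs and those of probes 2 and 3 hold none. The part of the probe sequence in these ratios was not tested.

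The genes whose log2 values were most like probe 1 of *Fgfr1* over the 6 arrays, among 14654 genes well above background on all of them, were *Arl6ip1* (Pearson r = 0.998), *Fancd2* (r = 0.997) and *Bub1* (r = 0.997). Their own log2 ratios were 1.22, 2.67 and 4.72. *Fancd2* acts in DNA crosslink repair and *Bub1* in the spindle checkpoint. These r values rest on 6 arrays that share 3 preparations, and they are a description only. Probe 1 of *Fgfr1* varied little within the groups and differed between them, so a high r picks out genes split by group in the same way.

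*Fgfr2* did not pass the call. Probe 1 read 8.13, 8.34 and 8.71 in replicating and 8.16, 10.71 and 8.35 in quiescent samples. Quiescent array 2 was far above the other 5 arrays, which overlapped. The ratio was -0.68 ± 0.61 (adjusted p = 0.602), with -0.03, -2.36 and 0.36 by preparation, and 0.14 without quiescent array 2, where the sign turned. Probe 2 of *Fgfr2* had a ratio of 0.09 ± 0.33.

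MET binds hepatocyte growth factor. Probe 1 of *Met*, the mean of 2 spots, read 9.81, 9.62 and 9.91 in replicating samples and 8.64, 6.78 and 10.05 in quiescent samples. The replicating values lay close together, the quiescent values spread over more than 3 log2 units, and the groups overlapped through preparation 3. Ratios by preparation were 1.17, 2.83 and -0.14. The fitted ratio of 1.29 ± 0.62, nearly that of *Fgfr1* in size, had an interval of -0.28 to 2.85 and did not pass (adjusted p = 0.475). It was 0.43 without quiescent array 2. It was called only without preparation 3 (2.00) among the alternatives run. Probe 2 had a ratio of 0.09 ± 0.33, and it was well above background on only 2 of 3 replicating arrays.

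**Figure D2:**
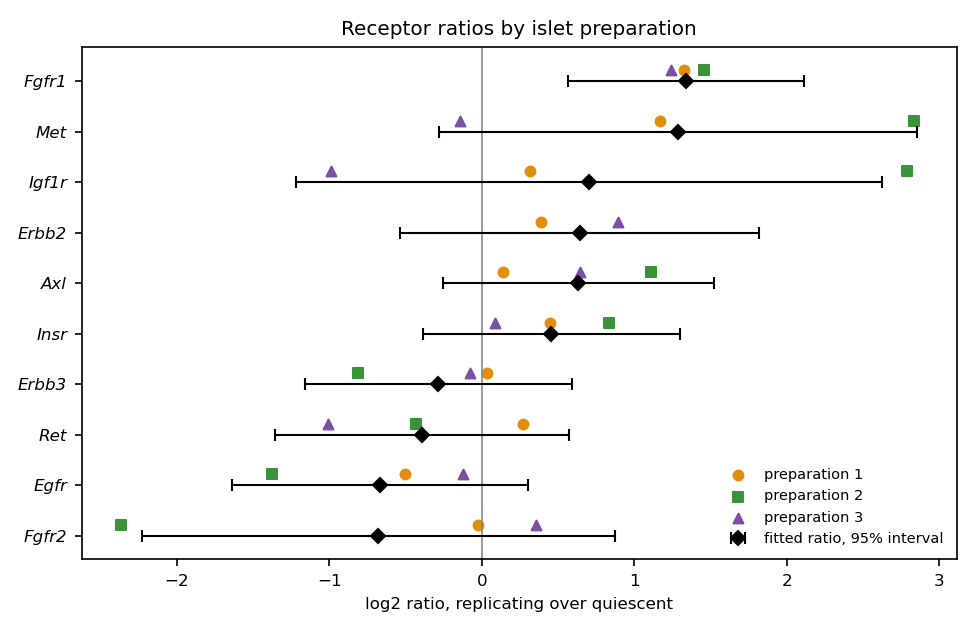
Log2 ratio of replicating over quiescent cells for probe 1 of each receptor, by islet preparation (coloured symbols) and as fitted over the preparations with its 95% interval (black diamonds and bars). The *Fgfr1* interval (0.57 to 2.12) is the only one clear of 0, and preparation 2 gives the outermost ratio for most receptors.

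The insulin and IGF receptors share a fold and much of their signalling through IRS proteins. Probe 1 of *Insr*, the insulin receptor, read 8.71, 8.34 and 8.49 in replicating and 8.26, 7.50 and 8.40 in quiescent samples. Each preparation had the higher value in replicating cells, but the groups overlapped. The ratio was 0.46 ± 0.33 (adjusted p = 0.535) and 0.18 without quiescent array 2. It was -0.07 with the processed signal and -0.01 with the normexp values, both scaled to the 75th percentile, so its sign depends on the scaling. Probe 2 gave 0.12 ± 0.33, and it was well above background on only 2 of 3 replicating arrays.

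Probe 1 of *Igf1r*, the receptor of IGF1 and IGF2, read 10.91, 10.80 and 10.29 in replicating and 10.60, 8.01 and 11.28 in quiescent samples. The quiescent samples held both the lowest and the highest value. The ratios of 0.31, 2.79 and -0.99 by preparation gave 0.70 ± 0.75 (adjusted p = 0.658), and -0.27 without quiescent array 2. Probe 2 of *Igf1r* read 8.63, 8.57 and 8.93 against 8.73, 9.75 and 8.58, a ratio of -0.31 ± 0.41. On quiescent array 2 the probes of this gene went opposite ways, probe 1 to its lowest and probe 2 to its highest value.

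EGFR binds EGF, TGFα, HB-EGF and related ligands. ERBB2 has no known ligand of its own and pairs with other members, and ERBB3, whose kinase is weak, binds neuregulins. Probe 1 of *Egfr* read 10.41, 10.54 and 10.23 in replicating and 10.91, 11.91 and 10.35 in quiescent samples. Each preparation had the lower value in replicating cells, and the groups overlapped. The ratio was -0.67 ± 0.38 (adjusted p = 0.49) and -0.24 without quiescent array 2.

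The other *Egfr* probes went opposite ways. Probe 2 read 8.04, 8.32 and 7.63 against 8.58, 12.20 and 7.70, with a ratio of -1.49 ± 0.81 (adjusted p = 0.483) that rests on quiescent array 2 and was -0.14 without it. Probe 3 read 7.50, 8.23 and 7.25 against 6.46, 6.41 and 7.21. Here the replicating values lay above the quiescent ones, by 0.04 at the nearest, and the ratio was 0.97 ± 0.44 (adjusted p = 0.475) and 0.83 without quiescent array 2. So the direction of *Egfr* differs between its probes, and none of the 3 passed.

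*Erbb2* read 6.67, 6.57 and 7.52 in replicating cells and 6.28 and 6.62 in quiescent cells. Its spot on quiescent array 2 was marked as an outlier and dropped, so the ratio of 0.64 ± 0.43 (adjusted p = 0.523) rests on preparations 1 and 3. The groups overlapped, and replicating array 2 was not well above background. In the fit with no pairing and without quiescent array 2 it was 0.47, and with the outlier spot kept it was -0.25. *Erbb3* read 7.04, 7.04 and 7.01 against 7.003, 7.85 and 7.09, with a ratio of -0.29 ± 0.34 (adjusted p = 0.695). Its replicating values were nearly equal, quiescent array 2 was the highest, and without that array the ratio was -0.02.

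RET signals for GDNF-family ligands held by GFRα co-receptors. Probe 1 of *Ret* read 9.85, 9.60 and 9.62 in replicating and 9.58, 10.03 and 10.63 in quiescent samples. The preparations disagreed in sign, the groups overlapped, and the ratio was -0.39 ± 0.38 (adjusted p = 0.625), and -0.42 without quiescent array 2. Probes 2 and 3 gave 0.87 ± 0.57 and -0.09 ± 0.48, and probe 3 was well above background on only 2 of 3 replicating arrays. With the median over its probes, *Ret* gave 0.31.

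AXL, of the TYRO3, AXL and MERTK family, binds GAS6. Its 1 probe read 6.96, 7.37 and 7.60 in replicating and 6.82, 6.25 and 6.96 in quiescent samples. The groups did not overlap, but replicating array 1 and quiescent array 3 differed by 0.003, and the ratio of 0.63 ± 0.35 did not pass (adjusted p = 0.486). It was 0.42 without quiescent array 2.

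**Figure D3:**
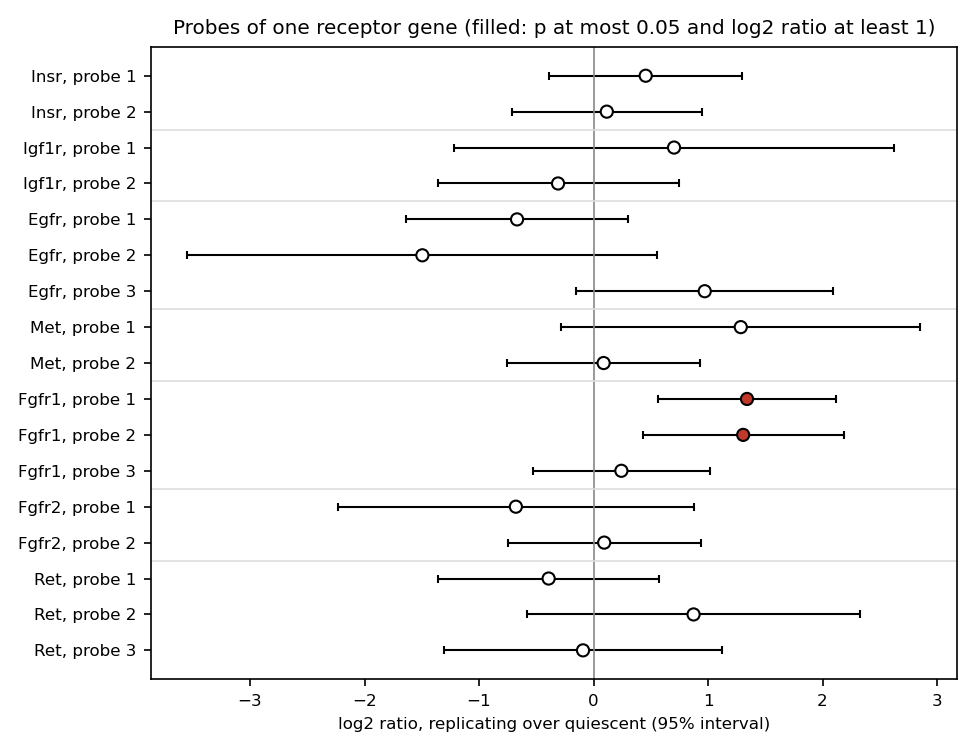
Log2 ratio of replicating over quiescent cells, with its 95% interval, for every probe of the receptors with several probes, in limma fits over 3 preparations; filled red points passed the call. *Fgfr1* probes 1 and 2 passed (1.34 and 1.31), and probes of *Egfr*, *Igf1r*, *Fgfr2* and *Ret* lie on both sides of 0.

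The size of the receptor ratios depended on the preparation. A ratio of at least 1 in size was seen for 2 of 10 receptors in preparation 1, 6 of 9 in preparation 2 and 2 of 10 in preparation 3. Among all genes the shares were 24.6%, 49.6% and 5.97%. The median receptor ratio was 0.29, 0.84 and 0.00 in preparations 1 to 3. *Fgfr1* was the receptor with a ratio of at least 1 in each preparation.

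Ligands of the receptors were measured for 28 of 29 genes listed (no probe was named *Nrg3*). Of these, 1 was higher and 0 were lower, against 5.63% and 2.76% of all genes, and the median log2 ratio was -0.07. The one called, *Fgf2*, an FGFR1 ligand, read 8.47, 9.01 and 8.59 in replicating and 7.82, 6.86 and 8.003 in quiescent samples. Its groups did not overlap, and its ratio was 1.13 ± 0.44 (adjusted p = 0.475). A second *Fgf2* probe gave 0.59 and was not called, a further *Nrg1* probe, without a value in preparation 2, was called higher (1.29, against -0.24 for its brightest probe), and the *Fgf2* call was lost in 7 of 12 alternatives. *Fgf9* had -0.99, just under the size of the call, and *Pros1*, a ligand of the AXL family, had 1.18 and missed its p. *Igf1*, *Igf2*, *Hgf* and *Gas6* had -0.48, 0.63, -0.06 and -0.80, and none passed.

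Of 20 co-receptors and close relatives, 4 were higher and 1 lower, against 5.63% and 2.76% of all genes, with a median of -0.35. Of the heparan sulphate proteoglycans, which help FGFs and other ligands bind, *Sdc1* and *Sdc4* were higher and *Gpc1* had -1.26 and did not pass. Further *Gpc1* probes went the other way, at 0.64 and 0.53, and were not called either. *Sdc1*, syndecan 1, read 9.77, 8.86 and 10.05 against 6.85, 5.93 and 8.06. No quiescent sample reached a replicating one, and the ratio was 2.61 ± 0.36, a fold of 6.11 (adjusted p = 0.226). *Sdc4* read 12.92, 12.25 and 12.11 against 11.72, 7.78 and 11.24, with a ratio of 2.18 ± 0.78 to which preparation 2 gave 4.47. *Nrp1*, neuropilin 1, rose by 1.56 ± 0.37 (adjusted p = 0.475). *Fgfr4*, another FGF receptor, read 9.32, 10.22 and 10.21 against 8.31, 8.80 and 9.30, with a ratio of 1.12 ± 0.32. Its groups did not overlap, by 0.03 at the nearest, and its call was lost in 5 of 12 alternatives. *Gfral*, the receptor of GDF15 that signals through RET, was lower, at 8.35, 8.31 and 7.31 against 9.86, 9.78 and 8.74. It fell by 1.47 ± 0.30 on the log2 scale (adjusted p = 0.475), with nearly the same ratio in each preparation (-1.51, -1.48 and -1.43).

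Other relatives were less even. *Klb*, the co-receptor through which FGFR1 binds FGF21, read 12.59, 12.68 and 12.26 against 14.71, 14.79 and 11.96. It was lower in preparations 1 and 2 and higher in preparation 3, and its ratio of -1.31 did not pass. *Insrr*, the insulin receptor-related receptor, had a ratio of -0.92 with the same sign in each preparation past the p but under the size of the call, and its second probe gave -0.16. *Igf2r*, which takes up IGF2 without kinase signalling, had 1.63, of which preparation 2 gave 3.85 and did not pass.

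Among 33 other receptor tyrosine kinases, 2 were higher and 0 lower, against 5.63% and 2.76% of all genes, with a median of 0.06. They were *Epha2*, an ephrin receptor (2.02 ± 0.40, adjusted p = 0.467), and *Ddr2*, a collagen receptor (1.37 ± 0.32, adjusted p = 0.475). Of this list, *Pdgfra* and *Pdgfrb* also stand among the fibroblast markers, *Kdr*, *Flt1* and *Tek* among the endothelial and *Csf1r* among the leukocyte markers, and none of these 6 passed. The fibroblast marker sums given above were higher in replicating samples. The part of such cells in the *Ddr2*, *Sdc1* and *Nrp1* ratios was not tested, nor was it for *Fgfr1* or *Fgf2*.

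The adaptors and the RAS-ERK and PI3K-AKT relay gave 0 calls among 42 genes, each read by its brightest probe, against 8.39% of all genes. A second probe of *Pik3r1*, a PI3K regulatory subunit, was called higher (1.11, against 0.82 for its brightest probe). Of the 42, 2 had an unadjusted limma p under 0.05, *Crk* (0.92) and *Rheb* (0.93). The ratio was above 0 for 34 of the 42 and the median was 0.44, but by preparation it was 0.52, 0.94 and 0.00. *Irs1*, the adaptor of the insulin and IGF receptors, had -1.27 through a value of 10.69 on quiescent array 2 where the other arrays read 6.27 to 6.73, and *Irs2* had 0.21. Brakes on the receptors include phosphatases, ubiquitin ligases and Sprouty proteins. They gave 1 call among 31 genes (no probe was named *Lrig3*), against 8.39% of all genes, with a median of 0.33. The one called was *Pik3ip1*, an inhibitor of PI3K (1.21 ± 0.46, adjusted p = 0.475), lost in 7 of 12 alternatives. *Spry2*, which restrains ERK signalling of FGF receptors, had 1.21, and the ubiquitin ligases *Cbl* and *Nedd4* had 1.604 and 1.66, none past the p, though a second *Nedd4* probe was called higher (1.36). Of 16 genes that ERK signalling induces or acts through, with a median of 0.21, 1 was higher, against 5.63% of all genes. It was *Ier3* (1.68 ± 0.58, adjusted p = 0.475). This count rests on the brightest probe of each gene. Second probes of *Plaur*, the urokinase receptor (2.27, against -0.03), and *Egr2* (1.98, against -1.16) were called higher. *Fos* and *Egr1*, early response genes, had 0.79 and 1.61, *Ccnd1*, cyclin D1, had -0.12, and *Dusp6*, an ERK phosphatase of the brakes, had 0.61, none of them past the p. Without preparation 3 the relay had 10 genes called higher and 1 lower, where all preparations gave none. Calls rose over all genes with a symbol as well, from 1011 higher and 496 lower to 2448 and 1828.

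The calls in these lists depended on the scaling, on the model and on single preparations to different degrees. *Sdc1* and *Epha2* were called under each of the 12 alternatives run on them. With the processed signal the calls of *Fgf2* (0.80), *Fgfr4* (0.88), *Sdc4* (1.93), *Nrp1* (1.46), *Ddr2* (1.52), *Pik3ip1* (0.90) and *Ier3* (1.44) were lost. With normexp values scaled to the 75th percentile those of *Fgf2* (0.66), *Fgfr4* (0.83), *Ddr2* (1.03) and *Pik3ip1* (0.75) were lost. With no pairing *Sdc4*, *Pik3ip1* and *Ier3* were not called, nor were *Fgf2*, *Fgfr4* and *Pik3ip1* with a variance trend, at the same ratios. Without quiescent array 2 the calls of *Fgf2* (0.78), *Sdc4* (0.95), *Pik3ip1* (0.70) and *Ier3* (0.81) were lost. Without preparation 1 those of *Fgf2*, *Fgfr4*, *Gfral*, *Sdc4*, *Nrp1*, *Ddr2*, *Pik3ip1* and *Ier3* were lost, with ratios from 1.04 (*Pik3ip1*) to 2.67 (*Sdc4*) for those above 0 and -1.45 for *Gfral*. Without preparation 2 *Fgf2* (0.62), *Fgfr4* (0.97), *Pik3ip1* (0.84) and *Ier3* (0.91) were not called, and without preparation 3 *Fgf2* was not (1.4).

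**Figure D4:**
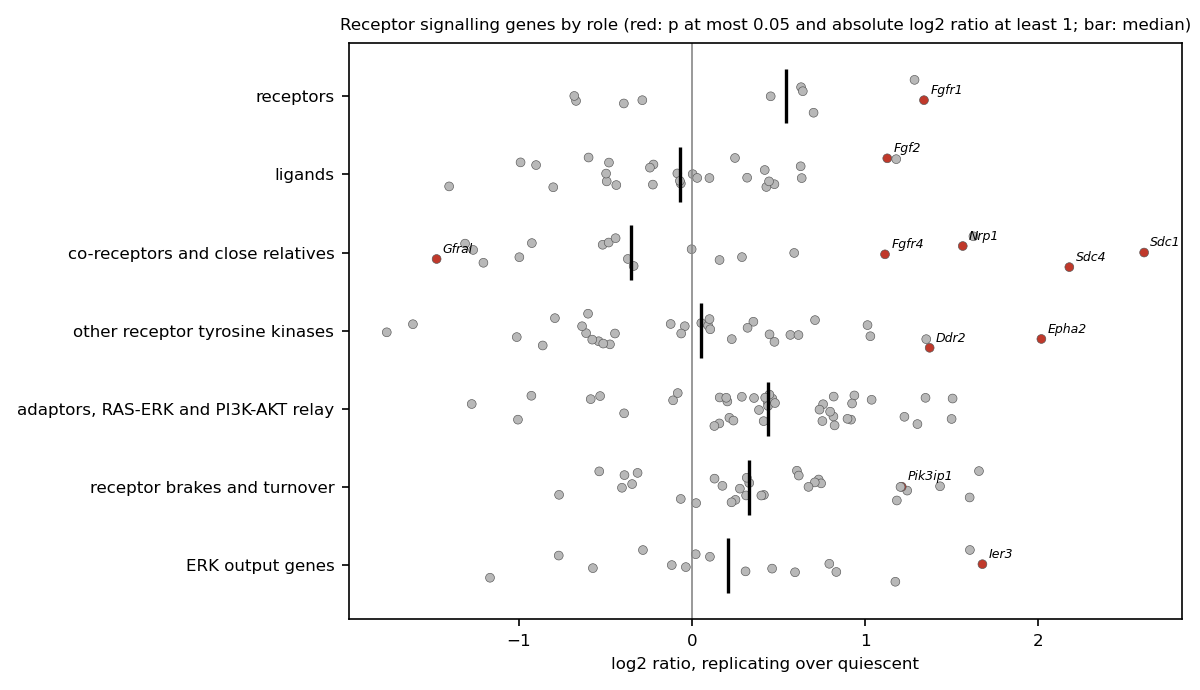
Log2 ratio of replicating over quiescent cells for each gene of the receptors and of 6 lists of signalling genes, 1 point a gene (spread vertically for sight only), with the median of each list as a black bar and called genes in red with their names. Medians run from -0.35 for co-receptors and close relatives to 0.54 for the receptors, and *Sdc1* (2.61) has the highest ratio.

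*Fgfr1* kept a log2 ratio of 1.20 to 1.42 over the 13 alternatives run. Not all of these could move the ratio. Recomputing the deposited values gave the same fit. Dropping the pairing or adding a variance trend changes only the p of a probe with a value on every array. *Fgfr1* did not pass the call with the processed signal (1.42) or without preparation 1 (1.35), where its unadjusted p lay above 0.05. It passed without preparation 2 (1.28) and without preparation 3 (1.39). *Met* ran from 0.43 to 2.00, *Igf1r* from -0.34 to 1.55 and *Egfr* from -1.40 to -0.24 over the same alternatives.

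**Figure D5:**
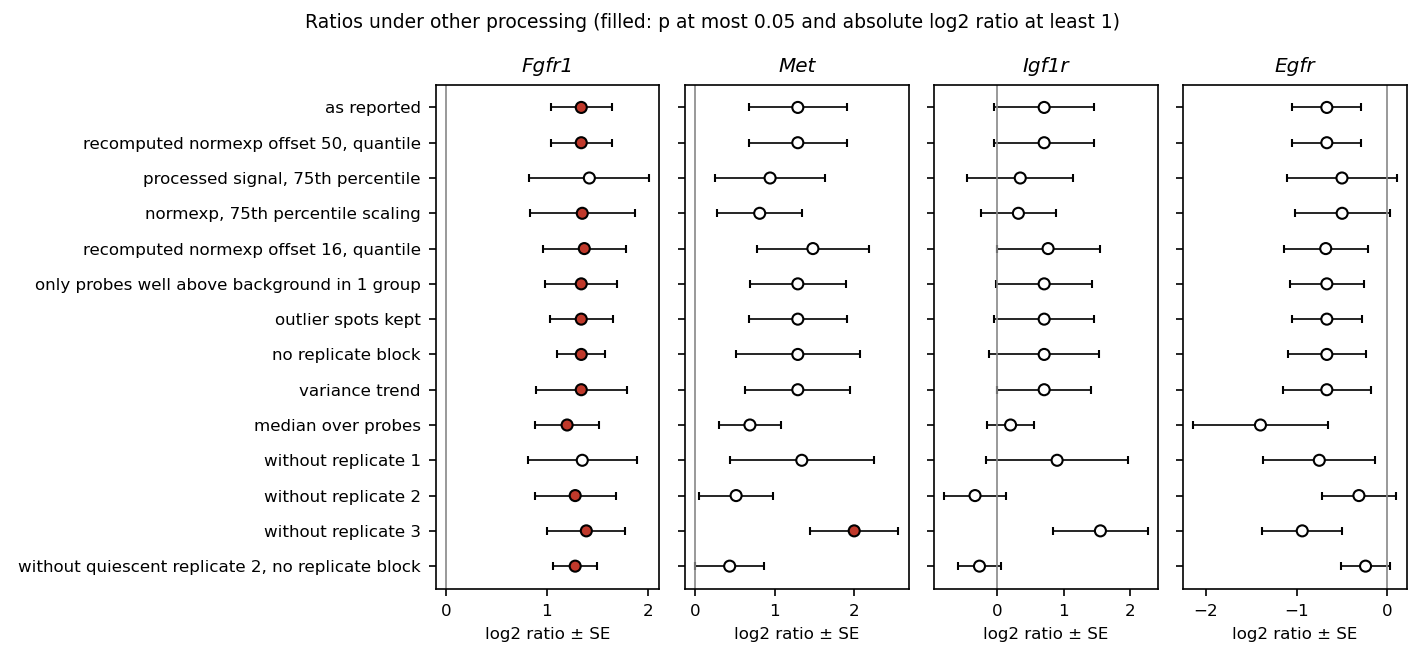
Log2 ratio of replicating over quiescent cells, with its SE as a bar, for *Fgfr1*, *Met*, *Igf1r* and *Egfr* as reported and under 13 alternatives; filled red points passed the call, and each panel has its own axis. *Fgfr1* stays between 1.20 and 1.42, while *Igf1r* falls below 0 without preparation 2 or without quiescent array 2.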

How the data were processed

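The 6 arrays of rat β-cells, 3 replicating and 3 quiescent, were read by the authors with Feature Extraction 10.7.3.1, which gave the deposited intensity of each spot, not normalized between arrays. The values used here are the log2 values the authors deposited beside them, background-corrected by normexp and then quantile normalized. Recomputing them from the intensity values with an offset of 50 gave differences of at most 0.000245. Control spots were left out, outlier spots were set to missing, and spots of a probe were averaged. The paired fit named in the study's methods was made for every probe in limma 3.58.1 with R 4.3.3 (lmFit, eBayes), and Benjamini-Hochberg adjustment ran across the 45598 probes. The labels give the pairing by islet preparation. As a check, the departures of the replicating and quiescent array of a preparation from the group means correlated at 0.0561, 0.242 and 0.258. All arrays shared 1 slide and scan, so no slide block was fitted.

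Names are those of the array files, 17960 of 36174 being RefSeq symbols of the assembly GRCr8. Members and gene lists were chosen with earlier results of these data known. Every receptor is named with every probe. From each list up to 6 called genes were named by smallest p, with ligands, co-receptors, relay genes and brakes of a described receptor whether or not they passed, and defining cell type markers by value. For *Fgfr1*, the 3 genes of highest r were named. The fit was tested on simulated data.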

Additional observations from a re-analysis of the deposited data

How the results depend on the processing

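With no replicate block, *Fgfr1* had 1.34 (limma, adjusted p = 0.177) and 99 probes passed the adjusted p, where 0 did with the block, and no receptor gene's call changed. Other counts past the adjusted p were 719 with normexp values scaled to the 75th percentile, 61 with a variance trend, 0 to 84 with a preparation left out (84 without preparation 2) and 151 without quiescent array 2 and the block. Probes called were 3928, against 7458 with that scaling, 578 to 10720 with a preparation left out (578 without 1, 2259 without 2, 10720 without 3) and 1668 without quiescent array 2. Receptor genes called went from 1 to 0 with the processed signal and to 0 to 2 with a preparation left out (0 without 1, 2 without 3). The receptor median was 0.0826 with the processed signal, 0.0978 with 75th percentile scaling and 0.104 with outlier spots kept. It was 0.159 without quiescent array 2 and the block, 0.215 without preparation 2 and 0.3 with the median over probes. Its highest was 0.645, with a normexp offset of 16. The processed signal and 75th percentile scaling moved the median of all genes to -0.48 and -0.28. They moved the share of higher genes among those called from 67.1% to 29.4% and 33.3%. It was 78.4% with no block, 92.2%, 81.1% and 57.2% without preparations 1 to 3, and 89.5% without quiescent array 2. Signs reversed as follows, and the cause was not tested. With the processed signal they were *Insr* -0.0741, its probe 2 -1.12, *Met* probe 2 -1.29, *Fgfr1* probe 3 -0.448, *Fgfr2* probe 2 -0.558 and the median of other receptor kinases -0.368. With 75th percentile scaling the same were -0.00826, -0.0692, -0.236, -0.295, -0.404 and -0.227. *Erbb2* was -0.249 with outlier spots kept. With the median over probes *Ret* was 0.314 and the ligand median 0.0277. Without quiescent array 2 *Igf1r* was -0.271, its probe 2 0.0544, *Fgfr2* 0.139, its probe 2 -0.026, *Ret* probe 3 0.156, *Insr* probe 2 -0.08, *Met* probe 2 -0.0448 and the median of other kinases -0.0665. With a preparation left out, values ran from -0.338 (without 2) to 1.55 for *Igf1r*, -0.64 to 0.124 (without 2) for its probe 2, -1.20 to 0.164 (without 2) for *Fgfr2*, -0.0478 (without 2) to 0.306 for its probe 2, -0.624 to 0.397 (without 2) for *Ret* probe 3, -0.0616 (without 1) to 0.284 for *Insr* probe 2, -0.121 (without 1) to 0.247 for *Met* probe 2, -0.207 to 0.0727 (without 1) for the ligand median and -0.207 (without 1) to 0.0502 for that of other kinases (-0.122 without 2).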
